A study of Mus musculus with 18 samples.

Results

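Whole kidneys of male Balb/c mice were sequenced 2 days after folic acid and compared with untreated kidneys of the same strain. The comparison holds 6 of the 18 libraries of a time course, 3 from day 2 and 3 from untreated kidney, and its members are the libraries that carry these labels. The mice of the day 2 group were given 250 mg/kg folic acid once by the intraperitoneal route, dissolved in sodium bicarbonate. The untreated group has no treatment in its labels. The labels name no group given bicarbonate alone and do not say whether the untreated mice received it. The folic acid and its vehicle therefore cannot be told apart here. The labels do not say that each library came from a separate mouse, so the spread behind each p-value may be technical. That spread was estimated over all 18 libraries of the time course, not only these 6. RNA was taken from frozen tissue of all cell types together, so fewer cells of a type and less RNA per cell cannot be told apart in any result. The tissue label was checked with 8 kidney genes: Lrp2, Slc34a1, Umod, Slc12a1, Slc12a3, Aqp2, Nphs1 and Kdr had reads in all 6 libraries, the lowest being Nphs1 at 0.816 CPM in 1 untreated library.

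A high dose of folic acid forms crystals in the tubule lumen and is also directly toxic to the tubular epithelium. The proximal tubule reclaims most of the filtered solutes through carriers of its brush border and depends on mitochondrial oxidation of fatty acids, so it is the segment most often described as damaged. Surviving tubule cells are known to flatten, lose mature functions, switch on genes such as Havcr1 and Sox9, and divide to replace lost cells. Injured tubule also releases chemokines, complement proteins and growth factors that act on leukocytes, vessels and fibroblasts.

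The untreated libraries held 23.1, 47.3 and 22.2 M gene reads (M, 1e6 reads) and the day 2 libraries 45.5, 8.68 and 24.6 M, in the order of replicates 1, 2 and 3, which holds for every set of 3 values in the text. Mitochondrial genes took 63.5% to 75.6% of these reads, which left 2.83 M other reads in day 2 replicate 2 and 5.41 to 16.3 M in the others. Day 2 replicate 2 stood apart from its group. Its log2 levels correlated with those of day 2 replicates 1 and 3 at Pearson r = 0.866 and 0.857 across genes, against 0.912 between these libraries and 0.917 to 0.929 among the untreated libraries. Genes are not independent replicates, so these correlations are a description. Results are therefore given with all 6 libraries and, where a call or a list's counts differ, with day 2 replicates 1 and 3 alone, called "without replicate 2".

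Of 16824 genes tested, 2216 (13.2%) differed at day 2, with 1210 higher (7.19%) and 1006 lower (5.98%), by edgeR's quasi-likelihood test at a Benjamini-Hochberg adjusted p under 0.05. Values of the groups did not overlap for 4711 of the genes tested (28.0%). The same held for 1996 of the 2216 genes called. A lack of overlap in a called gene below therefore adds little to its call. Scaling by library totals alone gave 1450 higher and 651 lower, so 69.0% of its calls were higher against 54.6% of the main calls. That scaling moved the median of all genes by 0.25 on the log2 scale, and directions below are relative to the main scaling, under which the median of all genes tested was 0.03. Without replicate 2, 856 genes were higher (4.82% of 17775 tested) and 716 lower (4.03%). The counts of list members below are to be read beside these shares of all genes, with and without replicate 2. Leaving out untreated replicate 1, 2 or 3 gave 1453, 1465 and 1464 calls, with 674, 713 and 678 higher. The main fit shared its spread over all 18 libraries of the series. Fitting only the 6 libraries compared gave 1186 calls, with 547 higher and 639 lower. Of the 2216 calls, 1387 were made in both fits in the same direction, 829 were lost without replicate 2, and 22 of those lost changed sign.

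Of the lost calls 451 were higher and 378 lower. Some higher calls rested on very large values in 1 library. Replicate 2 lay over 10 times above both other day 2 libraries in 82 of the genes called higher, and 4 of these 82 were called without it. The same count was 6 for replicate 1 and 10 for replicate 3. Gja1, a gap junction gene, had 0.544, 0.761 and 0.877 CPM in the untreated libraries and 0.775, 690.2 and 0.730 CPM at day 2. Sirt7, a deacetylase gene, had 20.01, 5.42 and 5.57 CPM in the untreated libraries and 6.30, 1437 and 6.96 CPM at day 2. Only replicate 2 was high in these genes, and the other day 2 libraries lay within the untreated range. The log2 fold change of Gja1 was 8.29 with all libraries and 0.04 without replicate 2, that of Tepp was 7.40 and 0.18, that of Sirt7 was 5.55 and -0.65, and that of Pfdn6 was 6.11 and -0.19. None of these 4 genes was called without replicate 2. On the lower side, 142 of the genes called had no read in the shallow replicate 2, and 28 had none in any day 2 library. Gja1 stood at 0.04 without day 2 replicate 2 (log2), against 8.29 with all libraries, and it was not called without day 2 replicate 2. Sirt7 stood at 6.42 without untreated replicate 1 or -0.65 without day 2 replicate 2 (log2), against 5.55 with all libraries, and it was not called without untreated replicate 2, untreated replicate 3 or day 2 replicate 2. Tepp stood at 6.79 without untreated replicate 1, 6.75 without untreated replicate 2, 10.02 without untreated replicate 3, 0.18 without day 2 replicate 2 or 7.99 without day 2 replicate 3 (log2), against 7.40 with all libraries, and it was not called without untreated replicate 1, untreated replicate 2 or day 2 replicate 2. Pfdn6 stood at -0.19 without day 2 replicate 2 (log2), against 6.11 with all libraries, and it was not called without untreated replicate 2, untreated replicate 3 or day 2 replicate 2.

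**Figure D1:**
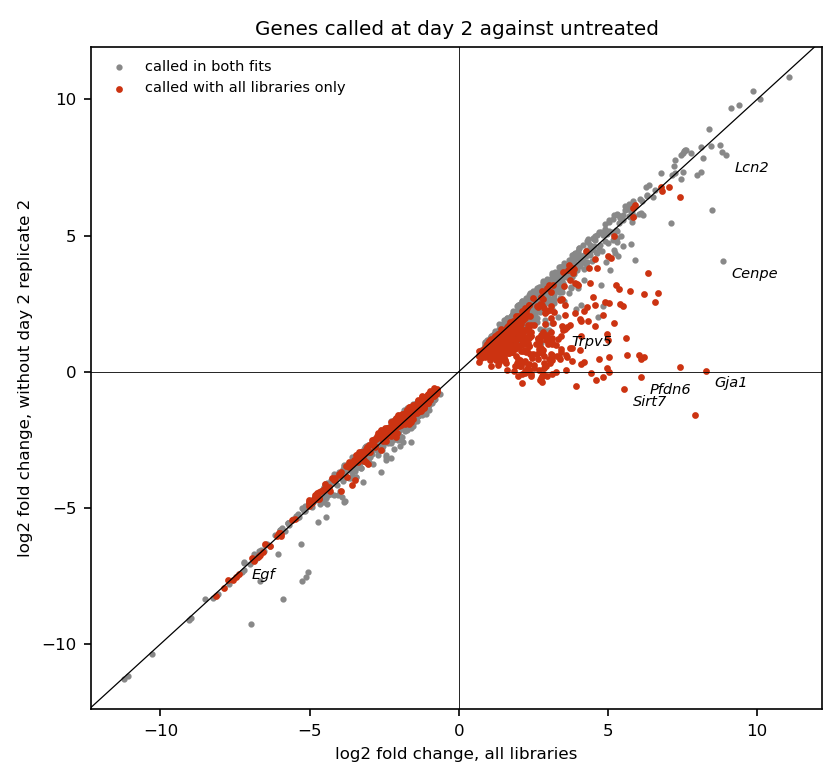
Each point is a gene called at day 2 against untreated. The x axis is its log2 fold change with all libraries and the y axis that without day 2 replicate 2, with the diagonal for equal values. Grey points (1387 genes) were called in both fits and red points (829 genes) with all libraries only. Red points spread far below the diagonal on the higher side, where Gja1 goes from 8.29 to 0.04, and stay near it on the lower side.

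Among genes that held without replicate 2, the 10 largest rises included Lcn2, Havcr1, Spp1, C3 and Serpina10. Lcn2, which encodes the iron-siderophore binding protein NGAL, had 0.163, 1.26 and 0.376 CPM in the untreated libraries and 259, 680.4 and 81.7 CPM at day 2 (log2 fold change 8.97, SE 1.04, adjusted p = 2.0e-05). Havcr1, which encodes the tubular injury receptor KIM-1, had 10.4, 23.3 and 15.5 CPM in the untreated libraries and 902, 678 and 1091 CPM at day 2 (log2 fold change 5.76, SE 0.39, adjusted p = 7.9e-08). Spp1, which encodes the secreted phosphoprotein osteopontin, had 98.4, 131 and 121 CPM in the untreated libraries and 17838, 29626 and 13766 CPM at day 2 (log2 fold change 7.45, SE 0.54, adjusted p = 1.3e-07). Each day 2 library lay above each untreated library for these genes, as their choice required. C3, the central complement component, rose from 3.04, 4.02 and 3.88 to 825, 855 and 353 CPM (185-fold, adjusted p = 1.0e-06). Serpina10, an inhibitor of coagulation factor X, went from 0.0544, 0.119 and 0 to 25.0, 15.7 and 23.5 CPM. The other 5 of the 10 largest were Cenpe, Depdc1a, Lif, Brca1 and Cxcl1. Brca1, a DNA repair gene, had 0.0544, 0.761 and 0 CPM in the untreated libraries and 17.98, 111 and 10.6 CPM at day 2 (log2 fold change 7.10). Lcn2 stood at 10.28 without untreated replicate 2 or 7.94 without day 2 replicate 2 (log2), against 8.97 with all libraries. Serpina10 stood at 9.32 without untreated replicate 2 (log2), against 8.11 with all libraries. Brca1 stood at 10.41 without untreated replicate 2 or 5.45 without day 2 replicate 2 (log2), against 7.10 with all libraries.

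Under the same conditions, the 10 largest falls included Egf, Dnase1, Slc7a13, Mep1b and Nccrp1. Egf, the growth factor precursor made by the thick ascending limb and distal tubule, fell from 282, 329 and 307 to 2.08, 0.845 and 2.81 CPM (log2 fold change -7.22, SE 0.54, adjusted p = 1.8e-07). Dnase1, the secreted deoxyribonuclease, fell from 426, 298 and 336 to 4.12, 4.73 and 10.99 CPM (log2 fold change -5.72). Slc7a13, an amino acid carrier of the late proximal tubule, fell from 363, 282 and 359 to 8.15, 7.44 and 8.73 CPM (log2 fold change -5.36, SE 0.51, adjusted p = 2.2e-06). All 3 day 2 libraries lay below the untreated ones, as the choice of genes required. Mep1b, a subunit of the brush border protease meprin, had 38.5, 39.0 and 36.6 CPM in the untreated libraries and 0.163, 0 and 0.0384 CPM at day 2 (log2 fold change -8.50). Nccrp1 had 4.73, 16.4 and 9.02 CPM in untreated kidney and 0 reads at day 2, which made it at least 325-fold lower taking 3 counts over the group as the floor. Cyp2d9, Ces1e, Slc22a22, Hpd and C8a made up the 10, with log2 fold changes of -6.99, -6.01, -6.68, -7.18 and -6.88. Cyp2d9 and Ces1e belong to families of near-identical genes, so their reads may be divided between copies. Dnase1 stood at -6.34 without day 2 replicate 3 (log2), against -5.72 with all libraries. Mep1b stood at -10.08 without day 2 replicate 1 (log2), against -8.50 with all libraries. Ces1e stood at -7.50 without day 2 replicate 1 (log2), against -6.01 with all libraries. Slc22a22 stood at -9.002 without day 2 replicate 1 or -6.08 without day 2 replicate 3 (log2), against -6.68 with all libraries. Hpd stood at -6.49 without untreated replicate 2, -6.26 without day 2 replicate 1 or -12.15 without day 2 replicate 3 (log2), against -7.18 with all libraries.

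**Figure D2:**
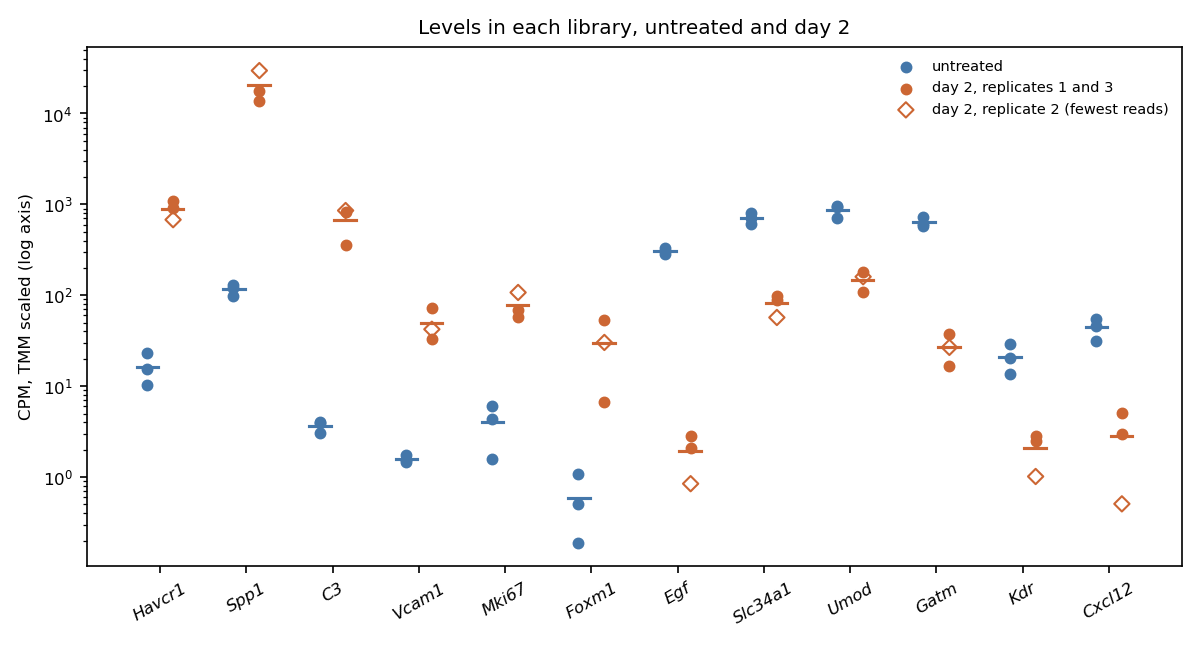
Points are CPM in each library on a log axis for 12 genes, blue for untreated and orange for day 2, with day 2 replicate 2 as an open diamond and lines at group means. Havcr1, Spp1, C3, Vcam1, Mki67 and Foxm1 lie higher at day 2 in all 3 libraries, and Egf, Slc34a1, Umod, Gatm, Kdr and Cxcl12 lie lower in all 3.

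Most known markers of injured tubule rose. Of 30 members, 22 were higher and 0 lower, against 7.19% of all genes, with a median log2 fold change of 2.88. Without replicate 2 there were again 22 higher and the median was 2.81. Vcam1, an adhesion molecule of injured epithelium and endothelium, had 1.47, 1.55 and 1.75 CPM in the untreated libraries and 72.9, 42.3 and 33.2 CPM at day 2 (log2 fold change 4.96, SE 0.46, adjusted p = 1.9e-06). Krt18, a keratin of simple epithelia, had 1.30, 2.57 and 1.25 CPM in the untreated libraries and 16.2, 16.1 and 11.6 CPM at day 2 (log2 fold change 3.07). Cp, the ferroxidase ceruloplasmin, had 13.05, 12.8 and 19.6 CPM in the untreated libraries and 353, 464 and 281 CPM at day 2 (log2 fold change 4.60). Every day 2 library exceeded every untreated library for these genes. Timp1, an inhibitor of metalloproteinases, had 1 read over the untreated libraries and 3.06, 15.5 and 6.496 CPM at day 2, a ratio of 388-fold, with a 95% exact counting interval from 69.2 to 15352. That read was in untreated replicate 1, and a fitted fold change of so few reads depends on the prior count. Krt20 was at 7.68, 7.44 and 0.538 CPM, with replicate 3 the lowest (log2 fold change 5.17). Hbegf, a ligand of the EGF receptor in the same list, had 4.02, 2.85 and 4.26 CPM in the untreated libraries and 13.2, 2.87 and 7.03 CPM at day 2 and was not called (adjusted p = 0.249). Timp1 stood at 10.93 without untreated replicate 1, 7.93 without untreated replicate 2 or 8.06 without day 2 replicate 2 (log2), against 8.83 with all libraries. Krt20 stood at 6.36 without untreated replicate 2 (log2), against 5.17 with all libraries, and it was not called without untreated replicate 1 or untreated replicate 3.

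Some transcription factors of kidney development were among the rises, but most of that list was not called. Sox9, a regulator of the embryonic nephron and of repair, had 0.435, 0.119 and 0.251 CPM in the untreated libraries and 16.0, 14.4 and 10.1 CPM at day 2 (log2 fold change 5.73, SE 0.74, adjusted p = 5.6e-05), with no overlap between the groups. Sox4, another factor of the same family, stood at 5.22, 8.45 and 4.65 CPM at day 2 (log2 fold change 3.79), and Pax8, which specifies the renal lineage, rose from 41.5, 39.8 and 40.5 to 64.8, 100.1 and 104 CPM (log2 fold change 1.14, SE 0.33). Foxj1, the regulator of motile cilia, had 3 reads over the untreated libraries and 100 over day 2, a ratio of 31.4-fold, with a 95% exact counting interval from 10.5 to 155. All 3 untreated reads were in untreated replicate 2. In all 4 of 21 members were higher and 0 lower (median log2 fold change 0.43, 0.30 without replicate 2), with 3 higher and 0 lower without replicate 2. Sox4 stood at 4.50 without untreated replicate 1 (log2), against 3.79 with all libraries. Pax8 was not called without untreated replicate 1, untreated replicate 2, untreated replicate 3, day 2 replicate 2 or day 2 replicate 3. Foxj1 stood at 8.005 without untreated replicate 2 (log2), against 4.86 with all libraries.

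Ligands and receptors of the EGF family did not move in 1 direction. While Egf fell, its receptor gene Egfr had 37.6, 36.5 and 38.0 CPM in the untreated libraries and 99.6, 60.8 and 103 CPM at day 2 (log2 fold change 1.23, SE 0.26, adjusted p = 0.00429). Nrg1, which encodes a ligand of the related ERBB receptors, had 6.90, 3.97 and 5.95 CPM in the untreated libraries and 24.1, 23.3 and 37.8 CPM at day 2 (log2 fold change 2.35, SE 0.47, adjusted p = 0.00266). Both lay above the untreated range in every day 2 library. The other 11 of the 14 members tested were not called (median log2 fold change 0.50, -0.15 without replicate 2).

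Genes of the dividing cell were higher in part for DNA replication and in most cases for mitosis. MCM proteins form the helicase that opens replication origins, UHRF1 keeps DNA methylation through replication, and RRM2 makes deoxynucleotides. Of 41 S phase genes tested, 17 were higher and 0 lower, against 7.19% and 5.98% of all genes (median log2 fold change 1.75, 1.45 without replicate 2). Mcm6 had 0.217, 0.690 and 0.564 CPM in the untreated libraries and 10.3, 32.1 and 17.6 CPM at day 2 (log2 fold change 5.29, SE 0.73, adjusted p = 1.1e-04). Uhrf1 had 0.272, 0.285 and 0.501 CPM in the untreated libraries and 16.3, 8.62 and 9.07 CPM at day 2 (log2 fold change 5.03). Rrm2 had 0.870, 0.547 and 0.0626 CPM in the untreated libraries and 16.6, 16.1 and 6.69 CPM at day 2 (log2 fold change 4.69). The groups did not overlap in these 3 genes, and replicate 2 was the highest of the day 2 libraries only in Mcm6. Without replicate 2, 13 of the S phase genes were called higher, against 4.82% of all genes.

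Of 45 mitosis genes tested, 33 were higher and 0 lower, against 7.19% and 5.98% of all genes, with a median log2 fold change of 3.27. Without replicate 2, 30 were higher, against 4.82% of all genes, and the median was 3.15. Mki67, a coat protein of mitotic chromosomes and the usual marker of cycling cells, had 4.40, 6.11 and 1.57 CPM in the untreated libraries and 58.2, 107 and 69.5 CPM at day 2 (log2 fold change 4.26, SE 0.44, adjusted p = 6.9e-06). Top2a, which untangles sister chromatids, had 1.85, 2.64 and 1.32 CPM in the untreated libraries and 30.6, 11.8 and 50.2 CPM at day 2 (log2 fold change 3.98, SE 0.60, adjusted p = 2.3e-04). Foxm1, a transcription factor of the mitotic program, had 1.09, 0.190 and 0.501 CPM in the untreated libraries and 53.5, 30.3 and 6.69 CPM at day 2 (log2 fold change 5.73). All day 2 libraries exceeded all untreated ones here, and in Top2a replicate 2 was the lowest of the day 2 libraries. Ccnb2, a mitotic cyclin, had 0.109, 0 and 0.188 CPM in the untreated libraries and 2.83, 2.87 and 9.15 CPM at day 2 (log2 fold change 5.89). Cdc20, an activator of the anaphase ubiquitin ligase, had 0.217, 0.0238 and 0 CPM in the untreated libraries and 8.32, 2.70 and 2.15 CPM at day 2 (log2 fold change 5.83). Each of these folds rests on 5 untreated reads. Cenpe, a kinetochore motor, had 0.435, 1.36 and 0.501 CPM in the untreated libraries and 5.61, 1113 and 21.1 CPM at day 2, so replicate 2 lay 52.6 times above the higher of the other libraries. Foxm1 stood at 6.53 without untreated replicate 1 or 4.99 without day 2 replicate 1 (log2), against 5.73 with all libraries. Ccnb2 stood at 5.04 without untreated replicate 2, 6.84 without untreated replicate 3 or 5.06 without day 2 replicate 3 (log2), against 5.89 with all libraries. Cdc20 stood at 7.75 without untreated replicate 1, 5.23 without untreated replicate 2 or 4.93 without day 2 replicate 1 (log2), against 5.83 with all libraries, and it was not called without untreated replicate 2 or untreated replicate 3. Cenpe stood at 9.62 without untreated replicate 2 or 4.06 without day 2 replicate 2 (log2), against 8.84 with all libraries.

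**Figure D3:**
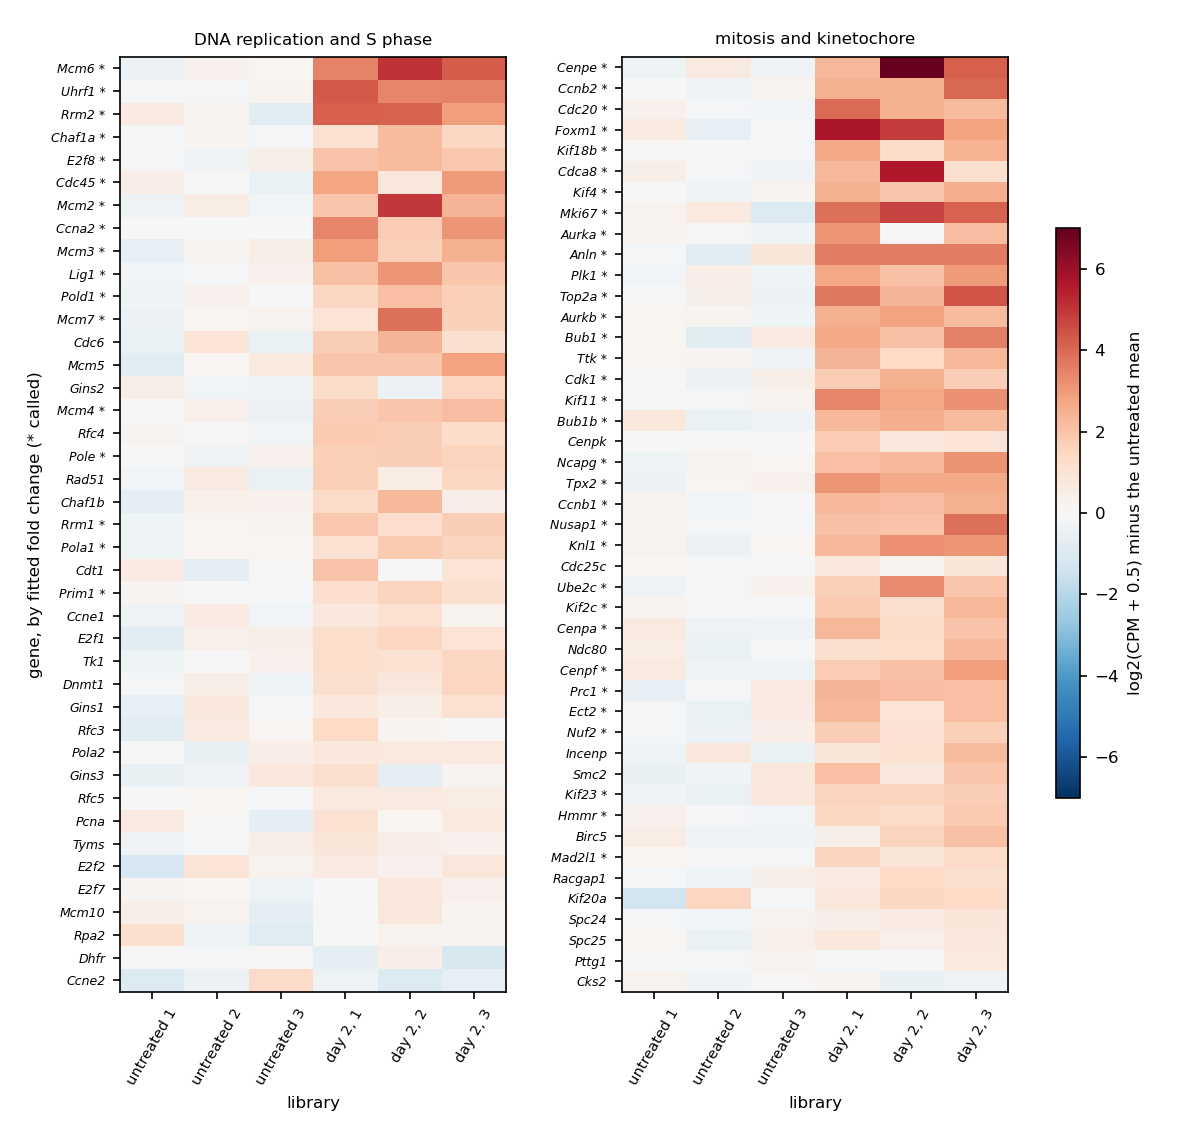
Colour shows log2(CPM + 0.5) minus the untreated mean for each tested S phase gene (left) and mitosis gene (right) in the 6 libraries, ordered by fitted fold change, with a star on called genes. The day 2 columns are red for most mitosis genes in all 3 libraries, and the deepest red of Cenpe is in replicate 2.

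Promoters of these genes were read to show the sequence that members moving together share. Vertebrate mitotic promoters are known for a cell cycle genes homology region (CHR), searched here as TTTGAA or TTCGAA on both strands, often with CCAAT boxes, searched as CCAAT on both strands. The RefSeq windows of build GRCm38.p6 hold 250 bases before and 50 after the gene start. A CHR was found in 29 of the 38 tested mitosis genes that had a window (76.3%), in 25 of the 30 called ones, and in 17.2% of the 11598 tested genes with a window and 19.2% of all 32851 windows. CCAAT was found in 29 of the 38 (76.3%), against 42.4% of tested genes. An E2F site, searched as TTTCCCGC, TTTCGCGC, TTTGCCGC or TTTGGCGC on both strands, was in 15 of 33 S phase genes (45.5%), against 4.25% of tested genes. An HNF1 site of 6 letters, searched as GTTAAT on both strands, was in 6 of 34 proximal tubule carrier genes (17.6%), against 6.04%. A match is only a description of the letters. The windows below are of the 4 named mitosis genes with the largest rises among those with a window and a CHR, shown 5′ to 3′ on the gene's strand, and capitals mark CHR and CCAAT letters.
Ccnb2, chr9:70421505-70421804, minus strand: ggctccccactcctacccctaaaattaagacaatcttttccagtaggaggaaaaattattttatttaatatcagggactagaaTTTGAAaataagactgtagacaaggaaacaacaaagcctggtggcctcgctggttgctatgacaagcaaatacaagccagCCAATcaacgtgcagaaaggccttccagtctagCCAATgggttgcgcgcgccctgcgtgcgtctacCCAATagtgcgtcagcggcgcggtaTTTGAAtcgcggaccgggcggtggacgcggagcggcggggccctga
Cdc20, chr4:118437294-118437593, minus strand: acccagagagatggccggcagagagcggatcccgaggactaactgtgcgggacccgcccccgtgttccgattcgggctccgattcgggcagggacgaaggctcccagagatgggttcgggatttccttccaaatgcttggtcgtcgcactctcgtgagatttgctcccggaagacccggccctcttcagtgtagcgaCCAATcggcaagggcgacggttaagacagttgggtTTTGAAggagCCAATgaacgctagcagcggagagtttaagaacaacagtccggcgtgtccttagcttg
Mki67, chr7:135716330-135716629, minus strand: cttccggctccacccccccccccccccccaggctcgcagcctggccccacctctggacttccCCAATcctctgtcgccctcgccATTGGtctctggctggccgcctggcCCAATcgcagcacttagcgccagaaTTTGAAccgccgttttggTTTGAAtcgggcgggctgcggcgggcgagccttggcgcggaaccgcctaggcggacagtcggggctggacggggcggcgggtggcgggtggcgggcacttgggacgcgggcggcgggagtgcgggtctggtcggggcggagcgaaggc
Top2a, chr11:99024140-99024439, minus strand: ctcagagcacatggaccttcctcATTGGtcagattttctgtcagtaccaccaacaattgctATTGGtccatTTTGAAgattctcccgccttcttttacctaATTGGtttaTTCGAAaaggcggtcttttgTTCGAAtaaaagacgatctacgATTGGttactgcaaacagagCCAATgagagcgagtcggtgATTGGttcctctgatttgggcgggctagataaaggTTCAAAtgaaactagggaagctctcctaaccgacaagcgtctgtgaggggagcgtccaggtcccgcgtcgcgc

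Counted to its first base, the CHR of Cdc20 lies 18 bases before the start, and the nearest of the 4 in Top2a lies 23 bases before it. The pair in Mki67 lies 116 and 98 bases before the start, and that in Ccnb2 lies 167 bases before and 4 after it. Foxm1 had no window. The window of Cenpe held no CHR by these letters, although Cenpe had the largest fitted fold change of the list.

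Targets and effectors of p53, which halts the cell cycle after DNA damage, rose in part. Trp53 itself had 9.46, 11.1 and 9.90 CPM in the untreated libraries and 46.4, 27.04 and 48.9 CPM at day 2 (log2 fold change 2.01, SE 0.32, adjusted p = 4.4e-04). Gdf15, a stress cytokine, had 0.489, 0.880 and 0.438 CPM in the untreated libraries and 12.6, 16.1 and 8.03 CPM at day 2 (log2 fold change 4.29). Cdkn1a, the cell cycle inhibitor p21, had 6.52, 1.83 and 1.38 CPM in the untreated libraries and 8.58, 8.28 and 52.8 CPM at day 2 (log2 fold change 2.85), so its rise rested mostly on replicate 3. Of 28 members, 6 were higher and 0 lower, against 7.19% and 5.98% of all genes (median log2 fold change 0.58, 0.45 without replicate 2). Without replicate 2, 5 were higher and 0 lower. Among cell death genes 5 of 36 were higher and 0 lower, against 7.19% and 5.98% of all genes, with 4 higher without replicate 2. The higher ones included Bak1, a pore protein of apoptosis, at 7.11, 19.4 and 8.61 against 2.23, 1.88 and 2.44 CPM. Acsl4, a lipid enzyme that favours ferroptosis, was at 195, 238 and 129.5 against 39.6, 40.7 and 33.9 CPM. Ripk3, a kinase of necroptosis, had no read in untreated kidney and 1.53, 0.169 and 2.38 CPM at day 2, at least 43.4-fold higher. In the cell cycle arrest and p53 targets list the number called higher was 3 without untreated replicate 3, against 6 with all libraries. In the cell death list the number called higher was 3 without untreated replicate 2 or 3 without untreated replicate 3, against 5 with all libraries. Cdkn1a stood at 3.84 without untreated replicate 1 or 1.38 without day 2 replicate 3 (log2), against 2.85 with all libraries, and it was not called without untreated replicate 2, untreated replicate 3 or day 2 replicate 3.

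Carriers of the proximal tubule fell widely. Of 43 members, 27 were lower and 1 higher, against 5.98% lower among all genes, and without replicate 2 it was 24 lower and 1 higher (median log2 fold change -1.52, -1.66 without replicate 2). Slc34a1, the main sodium phosphate carrier of the brush border, had 712, 796 and 614 CPM in the untreated libraries and 89.3, 57.0 and 98.8 CPM at day 2 (log2 fold change -3.11, SE 0.29, adjusted p = 1.9e-06). Slc22a19, an organic anion transporter, had 29.96, 42.6 and 30.9 CPM in the untreated libraries and 0.978, 2.87 and 1.42 CPM at day 2 (log2 fold change -4.42, SE 0.61, adjusted p = 1.1e-04). The day 2 and untreated values were far apart in both. Slc22a7, another organic anion transporter, had 7.34, 15.9 and 4.64 CPM in untreated kidney and no read at day 2, and Slc34a3, a further phosphate carrier, had 13.6, 18.5 and 11.1 CPM in the untreated libraries and 1.57, 0.169 and 0.346 CPM at day 2. The exception was Slc13a1, the sodium sulfate carrier, which rose from 136, 138 and 166 to 608, 425 and 471 CPM (log2 fold change 1.77, SE 0.24, adjusted p = 7.4e-05). Summed over the list, levels were 7948, 7431 and 7248 CPM in untreated kidney and 3815, 3965 and 3201 CPM at day 2, while Slc13a1 rose within the same libraries. Slc34a3 stood at -5.61 without day 2 replicate 1 (log2), against -4.18 with all libraries, and it was not called without day 2 replicate 3.

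Enzymes and receptors of the brush border fell without an exception among those called, with 11 of 24 members lower, and 12 without replicate 2 (median log2 fold change -0.76, -1.11 without replicate 2). Mep1a, the second meprin subunit, had 509.6, 573 and 516 CPM in the untreated libraries and 108, 74.9 and 110.3 CPM at day 2 (log2 fold change -2.45, SE 0.26, adjusted p = 9.8e-06). Ace, angiotensin converting enzyme, had 63.1, 75.8 and 40.6 CPM in the untreated libraries and 17.0, 12.0 and 8.84 CPM at day 2 (log2 fold change -2.24, SE 0.43, adjusted p = 0.0021). Both were lower in every day 2 library. Anpep, an aminopeptidase, had 65.2, 107 and 51.5 CPM in the untreated libraries and 29.8, 7.94 and 10.7 CPM at day 2, with replicate 1 the highest at day 2. Anpep stood at -2.99 without day 2 replicate 1 (log2), against -2.19 with all libraries.

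Transcription factors of the mature tubule mostly kept below the threshold of a call. Hnf4a, a master regulator of the proximal tubule, had 222, 194 and 214 CPM in the untreated libraries and 136, 334 and 223 CPM at day 2 and was not called (log2 fold change 0.14, adjusted p = 0.83). Maf, which supports proximal tubule differentiation, had 215, 124 and 167 CPM in the untreated libraries and 62.0, 66.8 and 55.5 CPM at day 2 (log2 fold change -1.46, SE 0.29, adjusted p = 0.00233). Vdr, the vitamin D receptor, had 220.3, 171 and 153 CPM in the untreated libraries and 61.8, 67.3 and 81.5 CPM at day 2 (log2 fold change -1.37, SE 0.26, adjusted p = 0.00182). Maf and Vdr were lower in all day 2 libraries, whereas Hnf4a values of the groups overlapped. Pou3f3, a factor of the loop of Henle, stood at 6.38, 3.72 and 4.04 against 7.88, 18.6 and 16.3 CPM. In the list 5 of 29 members were lower and 1 higher. In the mature tubule transcription factors list the number called lower was 3 without day 2 replicate 3, against 5 with all libraries.

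Genes of the loop of Henle and the distal tubule fell widely as well, with 16 of 29 members lower and 1 higher, and 14 and 0 without replicate 2 (median log2 fold change -1.40, -1.40 without replicate 2). Slc12a1, the furosemide-sensitive salt cotransporter of the thick ascending limb, had 347, 661 and 692 CPM in the untreated libraries and 39.8, 14.9 and 49.5 CPM at day 2 (log2 fold change -4.02, SE 0.46, adjusted p = 2.0e-05). Umod, the most abundant urinary protein uromodulin, had 705, 934 and 967 CPM in the untreated libraries and 178, 159.9 and 108 CPM at day 2 (log2 fold change -2.55, SE 0.31, adjusted p = 3.3e-05). Calb1, a calcium buffer of the distal convoluted tubule, had 150.3, 113 and 146 CPM in the untreated libraries and 21.1, 6.76 and 21.5 CPM at day 2 (log2 fold change -3.03, SE 0.40, adjusted p = 7.3e-05). All day 2 values of these genes lay below all untreated ones. Kl, the FGF23 coreceptor klotho, fell from 487, 389 and 432 to 97.2, 105 and 82.4 CPM (log2 fold change -2.20), and Pvalb, a calcium buffer of the early distal convoluted tubule, from 7.07, 10.6 and 10.3 to 0.367, 0.169 and 0.730 CPM. Slc12a3, the thiazide-sensitive cotransporter, had 134, 153 and 129 CPM in the untreated libraries and 134, 82.5 and 82.5 CPM at day 2 and was not called (log2 fold change -0.48, adjusted p = 0.246). The only higher member was the calcium channel gene Trpv5, called on replicate 2 with 25.1, 190.3 and 14.7 CPM against 11.3, 4.59 and 4.38 in untreated kidney, and not without it (1.55 on the log2 scale, adjusted p = 0.103). Trpv5 stood at 1.55 without day 2 replicate 2 (log2), against 3.50 with all libraries, and it was not called without day 2 replicate 2.

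In the collecting duct list, genes of water channels that face the blood fell, and Aqp2 was not called. Whole kidney was sequenced, so the cells behind these falls were not resolved. Aqp4 had 51.8, 36.9 and 43.2 CPM in the untreated libraries and 7.81, 4.73 and 8.46 CPM at day 2 (log2 fold change -2.63, SE 0.43, adjusted p = 4.8e-04). Aqp3 had 6.20, 6.71 and 5.83 CPM in the untreated libraries and 1.28, 0.507 and 1.46 CPM at day 2 (log2 fold change -2.44). Aqp2, the vasopressin-regulated channel, had 53.2, 18.9 and 6.39 CPM in the untreated libraries and 10.03, 8.28 and 26.5 CPM at day 2, with untreated libraries that differed among themselves (adjusted p = 0.43). Hsd11b2, which protects the mineralocorticoid receptor from cortisol-like steroids, fell from 47.6, 38.4 and 45.7 to 26.2, 20.1 and 12.7 CPM (log2 fold change -1.16). St6gal1, a sialyltransferase in the same list, rose from 3.53, 2.62 and 2.94 to 13.9, 19.4 and 12.2 CPM. Krt18, given above with injured tubule, was the other higher member of this list (log2 fold change 3.07). Of 17 principal cell genes 4 were lower and 2 higher (median log2 fold change -0.56, -0.53 without replicate 2), with 2 higher and 5 lower without replicate 2. Of 19 genes of the acid and base secreting intercalated cells 6 were lower and 0 higher, with 4 lower without replicate 2 (median log2 fold change -1.34, -1.27 without replicate 2). Slc4a1, the chloride bicarbonate exchanger, had 9.51, 12.7 and 13.1 CPM in the untreated libraries and 1.65, 0.169 and 1.31 CPM at day 2 (log2 fold change -3.35, SE 0.80, adjusted p = 0.00976), and it is a gene of red blood cells too.

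Among tight junction genes Cldn1 and Cldn4 rose and Cldn10 fell. Cldn1, a sealing claudin, had 10.5, 15.6 and 19.98 CPM in the untreated libraries and 99.4, 44.3 and 92.6 CPM at day 2 (log2 fold change 2.36, SE 0.34, adjusted p = 1.7e-04). Cldn4, a claudin of the distal nephron, had 1.79, 1.997 and 0 CPM in the untreated libraries and 21.4, 9.13 and 9.38 CPM at day 2 (log2 fold change 3.36, SE 0.78, adjusted p = 0.00789). Cldn10, which forms ion-selective pores, fell from 87.6, 91.9 and 80.8 to 35.2, 26.5 and 36.98 CPM (log2 fold change -1.40, SE 0.30, adjusted p = 0.00451). Groups did not overlap in any of them. The list had 6 higher and 2 lower of 26 tested, and 4 and 2 without replicate 2, against 7.19% higher and 5.98% lower among all genes. In the claudins and junctions list the number called higher was 3 without untreated replicate 1 or 3 without untreated replicate 3, against 6 with all libraries.

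The kidney is a gluconeogenic organ, and 9 of 17 genes of glucose production tested fell. G6pc, which releases free glucose, had 237, 145 and 238 CPM in the untreated libraries and 15.3, 7.27 and 7.26 CPM at day 2 (log2 fold change -4.36, SE 0.54, adjusted p = 3.8e-05). Pck1, the committing enzyme, had 1717, 1201 and 1312 CPM in the untreated libraries and 364, 197 and 147 CPM at day 2 (log2 fold change -2.58, SE 0.43, adjusted p = 6.2e-04). Gk, glycerol kinase, had 383, 295 and 320.2 CPM in the untreated libraries and 82.1, 55.4 and 52.8 CPM at day 2 (log2 fold change -2.39). All were lower in each day 2 library. The list had 9 of 17 lower and 1 higher, and 11 lower without replicate 2 (median log2 fold change -1.62, -1.57 without replicate 2). Glycolysis genes had 3 higher and 3 lower of 26, against 7.19% and 5.98% of all genes. Without replicate 2 it was 3 and 2 (median log2 fold change 0.16, -0.19 without it). Hk2, an inducible hexokinase, was higher at 1.47, 0.676 and 2.04 CPM against 0.109, 0.0951 and 0.0626 CPM (log2 fold change 3.93, SE 0.76, adjusted p = 0.00209), and Pdk1, which inhibits pyruvate dehydrogenase, was lower at 1.32, 1.52 and 1.42 against 7.61, 8.06 and 4.20 CPM.

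Genes of fatty acid oxidation and of the respiratory chain fell in part. Acsm2, a medium-chain acyl-CoA synthetase of the proximal tubule, had 1893, 1607 and 1895 CPM in the untreated libraries and 166, 160.2 and 202 CPM at day 2 (log2 fold change -3.35, SE 0.37, adjusted p = 1.1e-05). Oxct1, the ketone body activating enzyme, had 365, 385 and 426 CPM in the untreated libraries and 63.6, 71.5 and 67.2 CPM at day 2 (log2 fold change -2.54, SE 0.26, adjusted p = 6.2e-06). Bdh1, which interconverts ketone bodies, fell from 47.6, 31.9 and 32.3 to 3.51, 2.54 and 5.34 CPM. No day 2 value of these genes came near the untreated range. Of 40 fatty acid oxidation genes 15 were lower and 1 higher (median log2 fold change -0.73, -0.82 without replicate 2), and 14 and 0 without it. The higher member was Acot1, a cytosolic thioesterase, with 13.6, 18.2 and 23.9 CPM in the untreated libraries and 38.0, 54.6 and 45.0 CPM at day 2. Of 49 nuclear respiratory chain genes 24 were lower and 0 higher, with 19 lower without replicate 2 (median log2 fold change -0.87, -0.98 without replicate 2). Sdha, a subunit of complex II, had 147, 136 and 152 CPM in the untreated libraries and 49.4, 35.0 and 53.8 CPM at day 2 (log2 fold change -1.65, SE 0.29, adjusted p = 8.7e-04), and Ndufs1, a subunit of complex I, had 52.1, 63.8 and 61.4 CPM in the untreated libraries and 23.9, 17.1 and 15.6 CPM at day 2 (log2 fold change -1.65). Acot1 was not called without untreated replicate 1, untreated replicate 2 or day 2 replicate 2.

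In protein genes of the mitochondrial genome replicate 2 lay closer to untreated kidney than the other day 2 libraries. The list, of which 12 genes were tested, summed to 84368, 77131 and 100547 CPM in untreated kidney and to 43447, 81622 and 33933 CPM at day 2. Of these 4 were called lower with all libraries and 11 without replicate 2 (median log2 fold change -0.83, -1.16 without replicate 2). mt-Nd2 had 3516, 3226 and 4435 CPM in the untreated libraries and 1426, 1766 and 1000.1 CPM at day 2 (log2 fold change -1.41, SE 0.25, adjusted p = 9.2e-04) and mt-Nd4 had 13461, 11409 and 15108 CPM in the untreated libraries and 5616, 7035 and 3628 CPM at day 2 (log2 fold change -1.30); both encode complex I subunits.

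Amino acid breakdown was the list with the most genes lower, 29 of 46, with 2 higher (median log2 fold change -1.84, -1.83 without replicate 2). Without replicate 2 there were 28 lower and 0 higher. Gatm, the first enzyme of creatine synthesis, had 573, 604 and 719 CPM in the untreated libraries and 37.03, 26.7 and 16.8 CPM at day 2 (log2 fold change -4.55, SE 0.42, adjusted p = 1.9e-06). Haao, an enzyme of tryptophan breakdown toward NAD, had 26.2, 30.01 and 25.1 CPM in the untreated libraries and 1.16, 2.03 and 3.34 CPM at day 2 (log2 fold change -3.64, SE 0.49, adjusted p = 7.7e-05). No day 2 library came near the untreated range. Hpd, which breaks down tyrosine, had 10.2, 33.7 and 13.5 CPM in the untreated libraries and 0, 0 and 0.346 CPM at day 2. Arg2, the mitochondrial arginase, was called higher with 2.72, 18.5 and 2.004 CPM in the untreated libraries and 21.7, 50.4 and 23.1 CPM at day 2 (log2 fold change 2.01). Hpd stood at -6.49 without untreated replicate 2, -6.26 without day 2 replicate 1 or -12.15 without day 2 replicate 3 (log2), against -7.18 with all libraries. Arg2 stood at 3.71 without untreated replicate 2 (log2), against 2.01 with all libraries, and it was not called without untreated replicate 1, untreated replicate 3 or day 2 replicate 2.

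Cytochrome P450 and other drug-metabolising genes fell in 22 of 37 cases and rose in 6, or 20 and 3 without replicate 2. Cyp2e1, which oxidises small molecules such as ethanol, had 755, 499.7 and 580.1 CPM in the untreated libraries and 27.4, 31.4 and 14.6 CPM at day 2 (log2 fold change -4.65, SE 0.39, adjusted p = 7.2e-07). Ces1f, a carboxylesterase, had 153, 156 and 153 CPM in the untreated libraries and 6.30, 5.07 and 10.3 CPM at day 2 (log2 fold change -4.40, SE 0.46, adjusted p = 6.9e-06). Cyp7b1, an oxysterol hydroxylase, fell from 85.1, 124 and 93.4 to 5.14, 6.08 and 3.61 CPM (log2 fold change -4.37). In the other direction Cyp4a12b, a fatty acid hydroxylase, had 7.83, 8.63 and 5.83 CPM in the untreated libraries and 62.0, 77.9 and 72.6 CPM at day 2 (log2 fold change 3.25, SE 0.48, adjusted p = 1.8e-04). Ces1f and Cyp4a12b have close paralogs, so a division of reads between copies is not known. In the cytochrome P450 and drug metabolism list the number called higher was 2 without untreated replicate 1, 3 without untreated replicate 2 or 3 without untreated replicate 3, against 6 with all libraries.

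Antioxidant genes were divided. Cat, catalase, had 579, 487 and 551 CPM in the untreated libraries and 172, 243 and 133 CPM at day 2 (log2 fold change -1.56, SE 0.24, adjusted p = 2.5e-04). Sod2, the mitochondrial superoxide dismutase, had 106, 80.9 and 83.1 CPM in the untreated libraries and 31.4, 26.4 and 19.6 CPM at day 2 (log2 fold change -1.80, SE 0.24, adjusted p = 9.1e-05). Pgd, which makes NADPH, rose from 12.7, 13.4 and 15.8 to 30.5, 36.5 and 38.2 CPM (log2 fold change 1.33), and Abcc4, an exporter of organic anions, from 10.3, 12.7 and 10.1 to 28.4, 22.1 and 39.2 CPM. Each of these changes separated the groups. Hmox1, heme oxygenase, had 4.24, 7.13 and 8.96 CPM in the untreated libraries and 22.7, 39.9 and 16.3 CPM at day 2 (log2 fold change 1.95). Srxn1, a reductase of peroxiredoxins, had 8.75, 7.63 and 13.6 CPM in the untreated libraries and 25.5, 224 and 15.4 CPM at day 2, a call made on replicate 2. The list of NRF2 and glutathione genes had 6 higher and 4 lower of 32, against 7.19% and 5.98% of all genes. Without replicate 2 it was 3 and 4. The iron, heme and metallothionein list had 8 higher, Cp and Lcn2 among them, and 1 lower of 28, and 5 and 0 without replicate 2. In the NRF2 and glutathione defence list the number called higher was 3 without untreated replicate 1, against 6 with all libraries. In the iron, heme and metallothionein list the number called higher was 4 without untreated replicate 1, against 8 with all libraries. Hmox1 was not called without untreated replicate 1 or day 2 replicate 2. Srxn1 stood at 1.03 without day 2 replicate 2 (log2), against 3.14 with all libraries, and it was not called without day 2 replicate 2.

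Genes for folate and one-carbon metabolism, the pathway of the injected vitamin, were lower more often than higher: 8 lower and 3 higher of 32 (median log2 fold change -0.54, -0.72 without replicate 2), with 2 higher and 7 lower without replicate 2. The mitochondrial enzymes Shmt2 and Mthfd2 of this pathway moved apart. Shmt2, the mitochondrial serine hydroxymethyltransferase, had 52.0, 49.8 and 41.0 CPM in the untreated libraries and 8.72, 3.38 and 9.46 CPM at day 2 (log2 fold change -2.69, SE 0.40, adjusted p = 2.0e-04). Mthfd2, the mitochondrial enzyme that oxidises the carried unit and is typical of dividing cells, had 0.272, 0.0238 and 0.0626 CPM in the untreated libraries and 1.20, 1.01 and 1.42 CPM at day 2 (log2 fold change 3.45, SE 0.76, adjusted p = 0.00559). The day 2 values of Shmt2 were all below and those of Mthfd2 all above the untreated range. Ftcd, which takes carbon from histidine, fell from 10.7, 16.2 and 14.2 to 1.35, 0.338 and 1.69 CPM (log2 fold change -3.50), and Bhmt2, a methyltransferase to homocysteine, from 32.9, 31.5 and 28.2 to 6.54, 3.21 and 6.07 CPM (log2 fold change -2.52). Mthfd2 stood at 4.89 without untreated replicate 1 or 2.80 without untreated replicate 2 (log2), against 3.45 with all libraries.

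Genes of stress signalling and protein synthesis rose in smaller numbers. Myc, a transcription factor of growth, had 1.14, 4.09 and 2.25 CPM in the untreated libraries and 19.9, 59.7 and 24.6 CPM at day 2 (log2 fold change 3.76, SE 0.56, adjusted p = 1.9e-04). Npm1, a chaperone of ribosome assembly, had 46.5, 55.0 and 97.3 CPM in the untreated libraries and 233, 233 and 344 CPM at day 2 (log2 fold change 2.03, SE 0.27, adjusted p = 7.2e-05). Psat1, a serine synthesis enzyme that ATF4 controls, had 3.04, 9.11 and 3.26 CPM in the untreated libraries and 26.97, 57.3 and 33.8 CPM at day 2 (log2 fold change 2.91). All were higher in each day 2 library. The transfer RNA charging and ribosome list had 9 higher and 0 lower of 40 (median log2 fold change 0.81, 0.63 without replicate 2), with 6 higher and 0 lower without replicate 2. The unfolded protein response and ATF4 list had 7 higher and 3 lower of 34, against 7.19% and 5.98% of all genes. Without replicate 2 it was 5 and 1. In the unfolded protein response and ATF4 list the number called higher was 4 without untreated replicate 1, 4 without untreated replicate 2 or 4 without untreated replicate 3, against 7 with all libraries. In the tRNA charging and ribosome biogenesis list the number called higher was 4 without untreated replicate 2, against 9 with all libraries. Myc stood at 3.12 without day 2 replicate 2 (log2), against 3.76 with all libraries. Psat1 stood at 3.62 without untreated replicate 2 (log2), against 2.91 with all libraries.

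A share of the early response genes was higher at day 2. Klf6, a zinc finger factor induced by injury, had 7.88, 11.1 and 8.96 CPM in the untreated libraries and 72.5, 145 and 69.9 CPM at day 2 (log2 fold change 3.36, SE 0.46, adjusted p = 9.3e-05). Ier3, a survival gene downstream of NF-kappaB, had 2.39, 1.59 and 0.877 CPM in the untreated libraries and 12.2, 51.2 and 15.1 CPM at day 2 (log2 fold change 3.99). Atf3, a stress factor, had 0.0544, 0.499 and 0.0626 CPM in the untreated libraries and 3.95, 8.79 and 1.04 CPM at day 2 (log2 fold change 4.20). Replicate 2 was the highest library in these 3 genes, and the other day 2 libraries also exceeded the untreated ones. Of 28 members 11 were higher with and 11 without replicate 2, and 0 lower in both (median log2 fold change 1.53, 1.53 without replicate 2). Readouts of YAP, TGF-beta and Wnt signals had 8 higher and 2 lower of 37, against 7.19% and 5.98% of all genes. Without replicate 2 it was 7 and 1. Id1, a target of BMP signals, had 1.58, 1.59 and 0.940 CPM in the untreated libraries and 13.4, 7.44 and 20.8 CPM at day 2 (log2 fold change 3.34, SE 0.63, adjusted p = 0.00175), and Ccn1, a matricellular target of YAP, had 1.14, 1.93 and 1.75 CPM in the untreated libraries and 28.8, 119 and 14.95 CPM at day 2 (log2 fold change 5.06). In the immediate early and AP-1 list the number called higher was 7 without untreated replicate 1 or 6 without untreated replicate 3, against 11 with all libraries. Ier3 stood at 3.06 without day 2 replicate 2 (log2), against 3.99 with all libraries. Atf3 stood at 6.13 without untreated replicate 2 or 3.36 without day 2 replicate 2 (log2), against 4.20 with all libraries, and it was not called without untreated replicate 1 or untreated replicate 3. Ccn1 stood at 3.74 without day 2 replicate 2 (log2), against 5.06 with all libraries.

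Genes of inflammatory signalling were higher in part. Icam1, a leukocyte adhesion receptor, had 0.870, 0.666 and 0.940 CPM in the untreated libraries and 23.3, 26.5 and 10.7 CPM at day 2 (log2 fold change 4.62, SE 0.62, adjusted p = 7.9e-05). Socs3, the feedback inhibitor of interleukin 6 signals, had 0.109, 0.0476 and 0.125 CPM in the untreated libraries and 3.18, 6.93 and 4.92 CPM at day 2 (log2 fold change 5.80, SE 0.94, adjusted p = 4.8e-04). Il1rn, the interleukin 1 receptor antagonist, had 0.0544, 0.0476 and 0.251 CPM in the untreated libraries and 7.19, 7.44 and 3.81 CPM at day 2 (log2 fold change 5.86). The untreated values of these genes were below 1 CPM and all day 2 values above 3 CPM. Lif, a cytokine of the interleukin 6 family, had 0, 0 and 0.438 CPM in the untreated libraries and 39.1, 7.77 and 4.88 CPM at day 2 (log2 fold change 7.23). Il6 itself had no read in untreated kidney and 3 reads over the day 2 libraries, so no fold is given. The NF-kappaB and TNF list had 13 higher and 0 lower of 29, with 12 higher without replicate 2 (median log2 fold change 1.59, 1.53 without replicate 2). The interleukin 6 family and STAT3 list had 10 higher and 0 lower of 24, with 10 higher without replicate 2 (median log2 fold change 1.24, 1.27 without replicate 2). Il1rn stood at 6.80 without untreated replicate 3 (log2), against 5.86 with all libraries. Lif stood at 6.33 without untreated replicate 2, 12.03 without untreated replicate 3 or 5.72 without day 2 replicate 1 (log2), against 7.23 with all libraries.

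Most chemokine genes that were called rose. Cxcl1, which attracts neutrophils, had 0.163, 0.262 and 0 CPM in the untreated libraries and 17.4, 6.42 and 10.3 CPM at day 2 (log2 fold change 6.08, SE 0.84, adjusted p = 1.1e-04). Ccl2, which attracts monocytes, had 0.109, 0.0476 and 0.125 CPM in the untreated libraries and 2.71, 2.20 and 6.84 CPM at day 2 (log2 fold change 5.51, SE 0.71, adjusted p = 5.8e-05). Cxcl12, a homeostatic chemokine of stroma, vessels and podocytes, went the other way with 31.8, 45.9 and 55.3 CPM in the untreated libraries and 5.08, 0.507 and 2.998 CPM at day 2 (log2 fold change -3.83, SE 0.55, adjusted p = 1.6e-04). For all 3 genes the groups did not overlap. The list had 9 higher and 1 lower of 32, and 6 and 1 without replicate 2. In the chemokines and receptors list the number called higher was 5 without untreated replicate 1, against 9 with all libraries. Cxcl1 stood at 6.98 without untreated replicate 2 (log2), against 6.08 with all libraries. Ccl2 stood at 4.83 without day 2 replicate 3 (log2), against 5.51 with all libraries. Cxcl12 stood at -4.46 without day 2 replicate 1 (log2), against -3.83 with all libraries.

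The complement and coagulation list had 13 higher and 6 lower of 43, and 12 and 5 without replicate 2. Beside C3, Fgb, the fibrinogen beta chain, had no read in untreated kidney and 2.18, 2.03 and 0.346 CPM at day 2, at least 40.3-fold higher. C8a, a subunit of the membrane attack complex, had 20.6, 8.68 and 9.27 CPM in the untreated libraries and 0.122, 0 and 0.115 CPM at day 2 (log2 fold change -6.88, SE 0.91, adjusted p = 7.2e-05). Cfb, factor B of the alternative pathway, had 0.163, 7.25 and 3.51 CPM in the untreated libraries and 0.0204, 0 and 0.115 CPM at day 2 (log2 fold change -6.003), and its untreated values ranged widely. C3 and C8a thus moved in opposite directions in every day 2 library. Cfb stood at -5.004 without untreated replicate 2, -5.39 without day 2 replicate 1 or -7.41 without day 2 replicate 3 (log2), against -6.003 with all libraries, and it was not called without untreated replicate 2 or day 2 replicate 1.

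Markers of leukocytes did not move as a block. In the macrophage and monocyte list 7 members were higher and 2 lower of 30 tested, 4 having been removed by the filter on low counts, and without replicate 2 it was 6 and 0. Csf1, the macrophage growth factor, which tubule cells also make, had 1.09, 1.09 and 0.376 CPM in the untreated libraries and 11.4, 11.7 and 9.72 CPM at day 2 (log2 fold change 3.64, SE 0.55, adjusted p = 2.3e-04). Itgam, the integrin CD11b of myeloid cells, had 0.326, 0.238 and 0.501 CPM in the untreated libraries and 2.55, 3.89 and 4.96 CPM at day 2 (log2 fold change 3.46, SE 0.64, adjusted p = 0.0014). Csf1r, the receptor of CSF1 and a defining marker of macrophages, had 17.0, 20.3 and 33.8 CPM in the untreated libraries and 14.4, 6.59 and 5.73 CPM at day 2 (log2 fold change -1.40). The ligand gene and Itgam were high in all day 2 libraries while the receptor gene was low in all. Cd68 had 0.326, 2.59 and 1.38 CPM in the untreated libraries and 1.71, 6.42 and 4.61 CPM at day 2 and was not called (adjusted p = 0.252). Mrc1, the mannose receptor that the series title names as a fibrosis marker, had 1.30, 1.28 and 2.94 CPM in the untreated libraries and 0.469, 1.18 and 1.15 CPM at day 2 and was not called (adjusted p = 0.259). The list summed to 64.3, 91.3 and 114 CPM in untreated kidney and 130.1, 139.9 and 144 CPM at day 2. Csf1r was not called without untreated replicate 3, day 2 replicate 2 or day 2 replicate 3.

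For other leukocytes most markers were near the limit of detection. Of 19 neutrophil markers 11 were removed by the filter, and the 8 tested had 0 called by edgeR in either direction with or without replicate 2, against 13.2% of all genes. At an unadjusted p under 0.05 they had 2 higher, and DESeq2 called 1 higher. The granule genes Elane, Camp and Ngp had no read in any of the 6 libraries. The list summed to 11.1, 9.84 and 8.83 CPM in untreated kidney and to 9.42, 65.2 and 18.6 CPM at day 2, so the highest sum was in replicate 2. Of 24 T and natural killer cell markers 12 were tested, with 0 higher and 1 lower (0 without replicate 2), and 9 had no read at day 2, among them Cd3g, Nkg7 and Gzmb. The lower member was Trac, the T cell receptor alpha constant gene, with 14.2, 0.856 and 0.125 CPM in the untreated libraries and 0.102, 0 and 0 CPM at day 2, so untreated replicate 1 held most of its reads. Of 14 B and plasma cell markers 8 were tested, with 0 higher and 2 lower (1 without replicate 2), and Jchain, which joins secreted antibodies, had 3.26, 0.761 and 2.44 CPM in untreated kidney and no read at day 2 (at least 46.3-fold lower). Of 20 markers of adrenal, fat and blood carry-over 12 were tested with 1 lower, which was Slc4a1, and the list summed to 53.8, 50.2 and 31.4 CPM in untreated kidney and 15.7, 28.6 and 17.3 CPM at day 2. The part of these cells in the results for chemokine, complement and antigen presentation genes was not tested. Trac stood at -3.30 without untreated replicate 1, -7.08 without untreated replicate 3 or -10.16 without day 2 replicate 1 (log2), against -6.495 with all libraries, and it was not called without untreated replicate 1, day 2 replicate 2 or day 2 replicate 3.

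The shares of interferon and antigen presentation genes called were near the 13.2% of all genes. The interferon response list had 4 higher and 1 lower of 34, and 2 and 1 without replicate 2. Ifit2, an interferon-induced inhibitor of translation, had 1.47, 2.90 and 1.82 CPM in the untreated libraries and 5.42, 7.61 and 9.49 CPM at day 2 (log2 fold change 1.85, SE 0.42, adjusted p = 0.00727). The antigen presentation list had 2 higher and 1 lower of 18, and 3 and 0 without replicate 2. H2-DMa, which loads peptides on class II molecules, had 0.544, 0.357 and 0.438 CPM in the untreated libraries and 3.83, 4.23 and 5.54 CPM at day 2 (log2 fold change 3.36, SE 0.57, adjusted p = 7.5e-04), and Tapbp, which loads class I molecules, had 8.86, 9.89 and 6.45 CPM in the untreated libraries and 27.7, 30.1 and 29.2 CPM at day 2 (log2 fold change 1.78). H2-Aa, a class II chain, went the other way with 17.5, 32.4 and 24.1 CPM in the untreated libraries and 13.5, 9.80 and 10.95 CPM at day 2 (log2 fold change -1.10). H2-Aa was not called without untreated replicate 2, untreated replicate 3, day 2 replicate 2 or day 2 replicate 3.

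Of 25 endothelial genes 11 were lower and 0 higher, and 10 lower without replicate 2 (median log2 fold change -1.40, -1.57 without replicate 2). Kdr, the main VEGF receptor, had 13.8, 29.2 and 20.3 CPM in the untreated libraries and 2.47, 1.01 and 2.84 CPM at day 2 (log2 fold change -3.26, SE 0.44, adjusted p = 8.4e-05). Emcn, endomucin of capillaries and veins, had 16.2, 44.5 and 36.8 CPM in the untreated libraries and 4.20, 5.24 and 4.92 CPM at day 2 (log2 fold change -2.77, SE 0.39, adjusted p = 1.2e-04). Both were lower in every day 2 library. Vegfa, the ligand of Kdr and a product of podocytes and tubule, had 92.0, 83.96 and 75.4 CPM in the untreated libraries and 24.9, 27.2 and 29.4 CPM at day 2 (log2 fold change -1.62, SE 0.20, adjusted p = 4.4e-05). The endothelial list summed to 233, 350.3 and 323 CPM in untreated kidney and 105, 172 and 119.7 CPM at day 2.

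Podocyte genes were lower in 8 of 21 cases and higher in 1 (median log2 fold change -0.49, -0.55 without replicate 2), with 1 higher and 7 lower without replicate 2. Magi2, a scaffold of the slit diaphragm, had 10.1, 26.3 and 38.3 CPM in the untreated libraries and 2.51, 2.20 and 5.04 CPM at day 2 (log2 fold change -2.91, SE 0.51, adjusted p = 9.9e-04). Nphs1, nephrin, had 0.816, 4.28 and 2.94 CPM in the untreated libraries and 1.26, 1.01 and 1.23 CPM at day 2 and was not called (adjusted p = 0.213). Cd2ap, a slit diaphragm adaptor that other kidney cells also express, rose from 99.98, 94.0 and 109.9 to 325, 331 and 306 CPM (log2 fold change 1.66, SE 0.21, adjusted p = 3.9e-05).

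Stromal genes and matrix genes did not move alike. Col1a1, the alpha 1 chain of type I collagen, had 3.21, 3.66 and 1.06 CPM in the untreated libraries and 19.97, 30.9 and 36.9 CPM at day 2 (log2 fold change 3.44, SE 0.64, adjusted p = 0.00158). Itga8, an integrin of mesangial cells and fibroblasts, had 6.36, 10.5 and 9.96 CPM in the untreated libraries and 1.14, 0.507 and 0.577 CPM at day 2 (log2 fold change -3.50, SE 0.60, adjusted p = 8.4e-04). Dcn, decorin of resident fibroblasts, had 12.5, 9.51 and 9.02 CPM in the untreated libraries and 1.24, 0.169 and 2.38 CPM at day 2 (log2 fold change -2.88). So the collagen gene was high and both resident markers were low in all day 2 libraries. Acta2, smooth muscle actin, had 3.59, 2.66 and 1.94 CPM in the untreated libraries and 4.97, 55.3 and 13.9 CPM at day 2 (log2 fold change 3.16). Cdh11, the cadherin that the series title names as a fibrosis marker, had 3.64, 1.14 and 4.01 CPM in the untreated libraries and 2.14, 0.507 and 6.15 CPM at day 2 and was not called (log2 fold change 0.10, adjusted p = 0.945). Dpep1, listed with fibroblasts but also a brush border dipeptidase, fell from 38.5, 34.4 and 33.4 to 0.754, 1.18 and 2.96 CPM. The list of fibroblast, pericyte and smooth muscle genes had 3 higher and 5 lower of 22 (median log2 fold change -0.74, -0.83 without replicate 2), with 2 higher and 6 lower without replicate 2. Dcn stood at -3.53 without day 2 replicate 3 (log2), against -2.88 with all libraries. Acta2 stood at 1.77 without day 2 replicate 2 (log2), against 3.16 with all libraries, and it was not called without untreated replicate 2, untreated replicate 3 or day 2 replicate 2. Dpep1 stood at -5.30 without day 2 replicate 3 (log2), against -4.41 with all libraries.

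The matrix list had 17 higher and 4 lower of 51, and 14 and 3 without replicate 2 (median log2 fold change 0.43, 0.63 without replicate 2). Col12a1, a fibril-associated collagen, had 2.01, 2.04 and 3.63 CPM in the untreated libraries and 18.8, 163 and 27.8 CPM at day 2 (log2 fold change 4.77), and Col4a3, a chain of the glomerular basement membrane, fell from 221, 185 and 216 to 77.1, 80.1 and 109 CPM (log2 fold change -1.22). The list of proteases and inhibitors of matrix had 11 higher and 1 lower of 35, with 10 and 1 without replicate 2, and its median of -0.15 turned to 0.01 with library totals alone. Adam8, a metalloproteinase of activated cells, had 0.0544, 0.0476 and 0.0626 CPM in the untreated libraries and 1.41, 5.41 and 1.42 CPM at day 2 (log2 fold change 5.51). In the collagens and matrix list the number called higher was 9 without untreated replicate 1 or 10 without untreated replicate 3, against 17 with all libraries. Col12a1 stood at 3.19 without day 2 replicate 2 (log2), against 4.77 with all libraries. Col4a3 was not called without day 2 replicate 1 or day 2 replicate 2. Adam8 stood at 4.62 without day 2 replicate 2 (log2), against 5.51 with all libraries.

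Genes of the cytoskeleton and of adhesion were called in the higher direction only. Of 56 members 29 were higher and 0 lower, and 26 higher without replicate 2 (median log2 fold change 1.51, 1.04 without replicate 2). Tubb2b, a tubulin, had 0.707, 0.975 and 0.940 CPM in the untreated libraries and 18.1, 13.4 and 17.0 CPM at day 2 (log2 fold change 4.20, SE 0.55, adjusted p = 7.2e-05). Tmsb10, which binds actin monomers, had 0.217, 0.309 and 0.564 CPM in the untreated libraries and 8.34, 6.76 and 5.50 CPM at day 2 (log2 fold change 4.26, SE 0.55, adjusted p = 5.6e-05). S100a11, a calcium-binding protein, had 18.6, 18.5 and 21.1 CPM in the untreated libraries and 238, 582 and 114 CPM at day 2 (log2 fold change 4.002). Day 2 values exceeded untreated ones throughout, and replicate 2 was the highest only for S100a11. S100a11 stood at 3.17 without day 2 replicate 2 (log2), against 4.002 with all libraries.

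**Figure D4:**
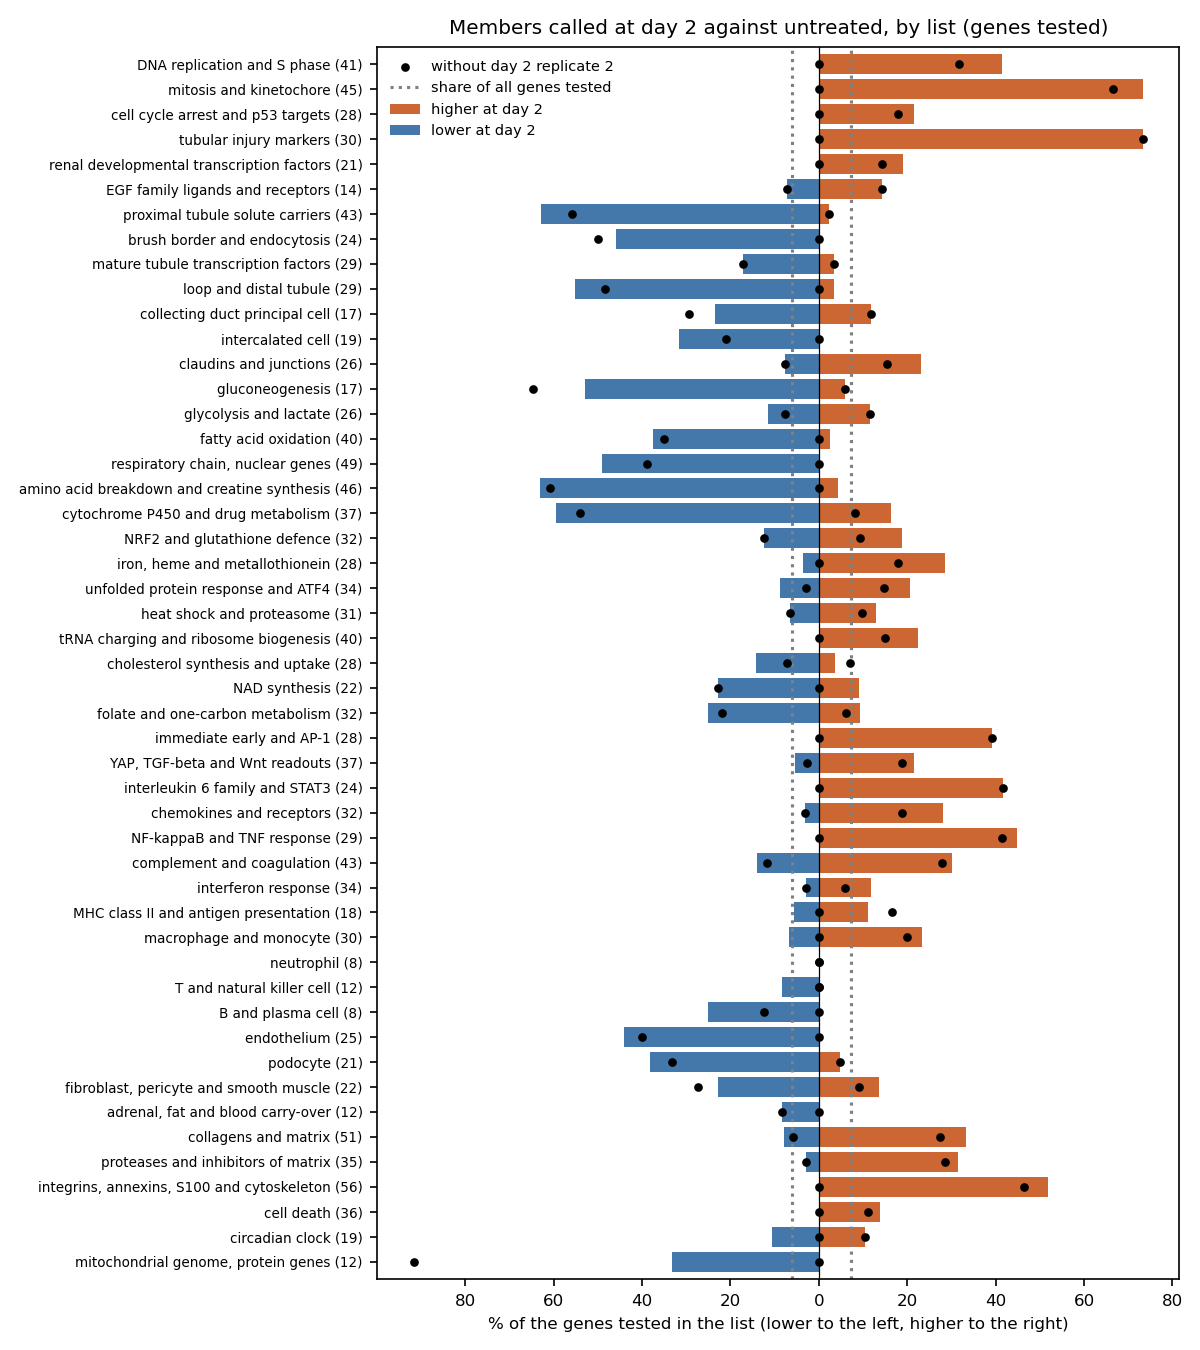
Bars give the percent of tested members of each of 49 lists called higher (right) or lower (left) at day 2, with the number tested in brackets. Black dots give the same without day 2 replicate 2, and dotted lines the shares of all genes tested, 7.19% higher and 5.98% lower. Mitosis and tubular injury reach furthest right at 73.3%, and amino acid breakdown and proximal tubule carriers reach furthest left among lists of 20 or more genes, at 63.0% and 62.8%.

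Most lists lay on the same side of untreated kidney in each day 2 library. The median over members of log2(CPM + 0.5) minus the untreated mean was computed in each day 2 library. For tubular injury markers it was 2.68, 2.94 and 2.52, for mitosis 2.28, 1.96 and 2.21, for proximal tubule carriers -1.38, -1.31 and -1.59 and for endothelium -1.59, -0.76 and -1.23. Of the 38 lists with 20 or more genes tested, 33 had all 3 day 2 libraries on the same side of 0. Lists with a count of 0 in a direction had few members there at looser limits: the 12 lists with 0 lower by edgeR had 3 of their 386 entries lower at an unadjusted p under 0.05 and 2 called lower by DESeq2, and the 9 lists with 0 higher had 2 of 169 and 1. Glycolysis was among the 5 other lists, with -0.16, 0.54 and -0.10, so replicate 2 alone was above 0.

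**Figure D5:**
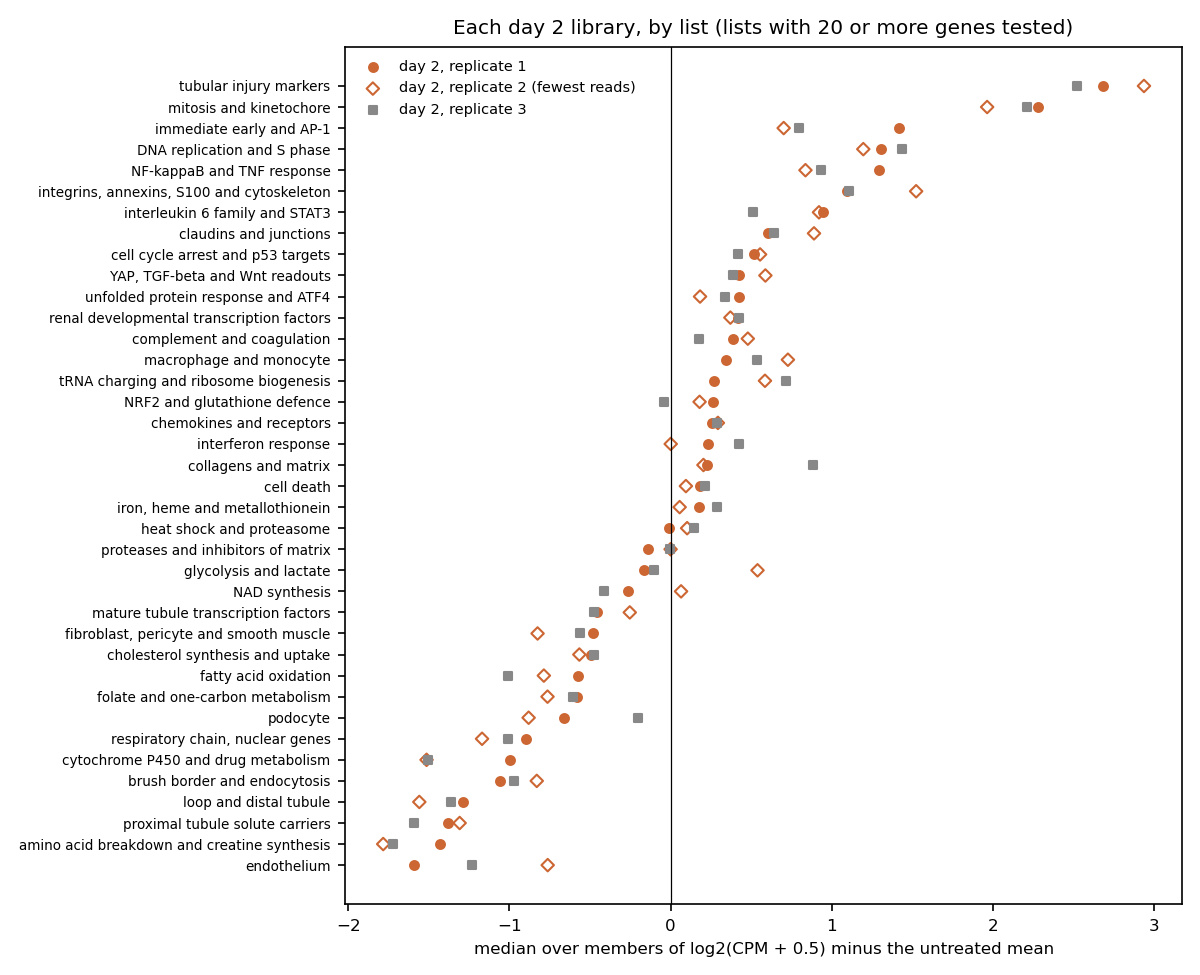
Each row is a list and each symbol a day 2 library, placed at the median over members of log2(CPM + 0.5) minus the untreated mean. Circles, squares and open diamonds are replicates 1, 3 and 2. Replicate 2 lies with the others for most lists and apart from them for glycolysis and endothelium.

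Day 2 was also set against its neighbours in time, whose mice had the same injection and were killed 1 day or 3 days after it. These contrasts share the day 2 libraries with the comparison above, and overlaps between them are not given. Few genes differed. Against day 1, 7 genes were higher (0.0416%) and 3 lower (0.0178%), and against day 3, 5 were higher (0.0297%) and 37 lower (0.22%).

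Of the 7 genes higher than at day 1, 4 were mitosis genes, of the 45 tested. Mki67 was at 12.2 ± 3.89 CPM at day 1 and 78.3 ± 25.7 CPM at day 2 (mean ± SD, n = 3), a log2 difference of 2.68 (adjusted p = 0.0191). Foxm1 was at 2.59 ± 0.855 and 30.1 ± 23.4 CPM (log2 difference 3.55). Cenpe and Knl1 were the others, Knl1 being a kinetochore gene named after its values were seen. Without replicate 2 the differences of Mki67 and Foxm1 were 2.38 and 3.54, with adjusted p = 0.0572 and 0.0738, so neither was called. Only 1 gene was then higher than at day 1 and 0 were lower by edgeR, against 1046 and 766 at an unadjusted p under 0.05, and no other tool was run on this contrast.

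Of the 37 genes lower at day 2 than at day 3, 3 were among 37 cytochrome P450 and drug genes and 3 among 43 complement and coagulation genes. Lists with 2 were the 43 proximal tubule carriers, 30 macrophage genes, 18 antigen presentation genes and 35 matrix proteases and inhibitors. The 24 brush border genes and the 29 loop and distal genes had 1 each, as had some other lists. A gene can be in more than 1 list. Egf was at 1.91 ± 0.991 CPM at day 2 and 24.3 ± 14.3 CPM at day 3 (mean ± SD, n = 3), a log2 difference of -3.56 (adjusted p = 0.00304). Slc34a1 was at 81.7 ± 21.95 and 239 ± 25.3 CPM (log2 difference -1.55, adjusted p = 0.0184). Mrc1 was at 0.935 ± 0.404 and 9.17 ± 1.35 CPM (log2 difference -3.37, adjusted p = 0.0184). H2-Aa was at 11.4 ± 1.90 and 61.1 ± 24.8 CPM (log2 difference -2.41, adjusted p = 0.00594). Without replicate 2, 14 genes were lower than at day 3 and 0 higher by edgeR (1077 and 1005 at an unadjusted p under 0.05), and the difference was -3.32 for Egf (adjusted p = 0.0165), -1.34 for Slc34a1 (adjusted p = 0.0738), -3.51 for Mrc1 (adjusted p = 0.0548) and -2.31 for H2-Aa (adjusted p = 0.0393). Without replicate 2, no gene was called above both neighbours in time or below both.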

How the data were processed

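RNA was extracted with TRIzol from frozen kidney and libraries were made from 10 ng with NuGEN SPIA reagents, per the labels' protocols. The submitters' processing notes name cutadapt, TopHat2 2.07, HTSeq, DESeq and build NCBIM37. The deposited values used here are raw counts of reads per gene for 37991 identifiers. The 5 HTSeq tallies of reads given to no gene were left out. In the 6 libraries the tally of no feature came to 13.8% to 19.0% and that of reads not unique to 19.4% to 27.8%. The deposited normalised counts were not used here. Strandedness of the counting is not given in the sources used here, so overlapping genes are uncertain. Symbols came from GENCODE M21 and were found for 32919 identifiers.

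Counts of all 18 libraries in 6 groups were fitted with edgeR 4.0.16 (TMM scaling, filterByExpr, quasi-likelihood F test, two-sided), and the day 2 contrasts were adjusted over all 16824 genes by Benjamini-Hochberg. SE is the log2 fold change divided by the root of F. Levels are CPM with TMM scaling. A fold against a group without a read uses a floor of 3 counts over the group. Intervals cover counting error only, since no molecular identifiers are named in the sources used here.

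The 49 gene lists (1521 entries, of which 1420 were tested, 96 filtered and 5 not found) and the members were chosen with earlier results of these data known. They are described by counts and medians, with no test of a list. Genes named were the 10 largest changes in each direction with at least 10 CPM, no overlap and a call without day 2 replicate 2, up to 4 members of each list in its more frequent direction and 2 in the other with at least 1 CPM, a panel of 24 genes, and 4 genes decided by day 2 replicate 2. Not all of them are given, and the results of 5 of these genes are not reported here. Alternatives used DESeq2 1.42.0, limma 3.58.1, other scalings and filters, a replicate block, and each library left out in turn. The edgeR fit was tested on simulated counts. Fits ran in R 4.3.3, tables in Python 3.11.15 (pandas 2.3.3), figures in matplotlib 3.10.9.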

Additional observations from a re-analysis of the deposited data

Results flagged for a closer look

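The genes below differed at day 2 from day 1 or day 3 by an edgeR quasi-likelihood contrast of the same fit over all genes, so their change from untreated kidney differed between these times. All adjusted p-values are over all genes tested.

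Against day 1, 4 of 45 mitosis genes were higher at day 2, and 3 of them are given here. The log2 difference was 2.68 for Mki67 (adjusted p = 0.0191), 3.55 for Foxm1 (adjusted p = 0.048) and 7.84 for Cenpe (adjusted p = 0.037). Without day 2 replicate 2 they were 2.38, 3.54 and 3.02, none past the threshold (adjusted p = 0.0572, 0.0738 and 0.0738). Dnase1 and Cyp2d9 were lower than at day 1, by log2 differences of -3.43 and -3.95, which were -3.27 and -4.01 without that replicate (adjusted p = 0.0512 and 0.0738).

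Against day 3, 5 of the named genes were lower at day 2 both with all libraries and without replicate 2. The log2 difference was -6.26 for Mep1b, -4.76 for Cyp2d9, -3.56 for Egf and -2.24 for Cyp2e1. H2-Aa, a class II antigen gene, was at -2.41. Without replicate 2 these were -6.10, -4.81, -3.32, -2.44 and -2.31, all 5 past the threshold.

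The other named genes lower than at day 3 were past the threshold only with all libraries. Their log2 differences were -4.50 for C8a, -4.23 for Slc22a22, -3.37 for Mrc1, -2.85 for Tcf21, -2.44 for Ces1f, -2.18 for Slc7a13, -1.999 for Vcam1 and -1.55 for Slc34a1. Without replicate 2 they were -4.31, -4.11, -3.51, -2.60, -2.26, -2.12, -1.89 and -1.34, with adjusted p from 0.0548 for Mrc1 to 0.123 for Slc7a13. Vcam1, an injury marker far above untreated kidney at day 2, was thus lower there than at day 3, at 49.5 ± 20.8 against 198 ± 105 CPM (mean ± SD, n = 3).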

How the results depend on the processing

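The 2216 calls (1210 higher, 1006 lower) stayed within 1.5 times under RLE size factors, no low-count filter, DESeq2 (3001 calls), sample weights, the replicate block and removal of mitochondrial genes. Fitting only the 6 libraries gave 1186, with 547 higher and 639 lower, limma-voom gave 760 higher, and library totals alone gave 651 lower. Leaving out 1 library at a time gave 1453 to 2005 calls, 674 to 1207 higher and 716 to 798 lower. Leaving out replicate 2, chosen for these contrasts after seeing the data, gave 1 gene higher and 0 lower against day 1, and 0 higher and 14 lower against day 3. With the replicate number as a block there were 1895 calls. Deviations of libraries with the same number were not correlated across genes (from -0.026 to 0.004). With 3 libraries a group this cannot decide whether same-numbered samples were handled together, and the labels do not say.

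Of 215 named genes that were called, 150 stayed called whichever of the 6 libraries was left out. Signs reversed without replicate 2 for 2 of them. Over these 6 fits log2 fold changes ran from -0.65 without day 2 replicate 2 to 6.42 for Sirt7 and from -0.19 without it to 6.68 for Pfdn6. Neither was called without it. Among uncalled genes Hnf4a ran from -0.23 without it to 0.40, and was at -0.10 under limma-voom and -0.14 with sample weights. Aqp2 ran from -1.51 to 0.23, the latter without untreated replicate 1. Cdh11 ran from -0.93 without day 2 replicate 3 to 0.51, and was at -0.32 without untreated replicate 2. The cause was not tested. Of 2204 recomputed counts and medians of the 49 lists, 365 moved, counts by over 1.5 times and medians by over 1 SD of the 3 day 2 libraries. Of these 188 came from leaving out 1 library (34 from day 2 replicate 2), 45 from library totals alone and 37 from fitting only the 6 libraries. With the scaling, 1 list median changed sign. The 2.83 M non-mitochondrial reads of day 2 replicate 2 limit what it can show for genes of low level, and changes under about 1 CPM rest on few reads.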

Other observations

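Clock, heat shock, cholesterol and NAD genes had calls in both directions. Among all genes tested, 7.19% were higher and 5.98% lower, and 4.82% and 4.03% without replicate 2. Of 19 clock genes 2 were higher and 2 lower, and 2 and 0 without replicate 2. Bhlhe40, a repressor of clock transcription, had 20.3, 12.4 and 8.58 CPM in the untreated libraries and 65.8, 68.8 and 43.2 CPM at day 2 (log2 fold change 2.11, SE 0.32, adjusted p = 2.4e-04), and Bhlhe41, its paralog, had 0.924, 0.499 and 0.188 CPM in the untreated libraries and 1.73, 4.23 and 4.23 CPM at day 2 (log2 fold change 2.63, SE 0.63, adjusted p = 0.00925). Both were above the untreated range in all day 2 libraries. The labels give no time of day for the collection, so its part was not tested. Of 31 heat shock and proteasome genes 4 were higher and 2 lower, and 3 and 2 without replicate 2. Hspb1, a small heat shock protein, had 1.41, 4.16 and 5.64 CPM in the untreated libraries and 23.8, 33.5 and 14.3 CPM at day 2 (log2 fold change 2.67, SE 0.55, adjusted p = 0.00347), while the mitochondrial chaperonin Hspd1 had 180.3, 207 and 239 CPM in the untreated libraries and 62.6, 83.2 and 82.3 CPM at day 2 (log2 fold change -1.46, SE 0.24, adjusted p = 6.2e-04).

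Of 28 cholesterol genes 1 was higher and 4 lower, and 2 and 2 without replicate 2 (median log2 fold change -0.45, -0.50 without replicate 2). Cyp51, a demethylase of sterol synthesis, had 71.0, 61.0 and 63.6 CPM in the untreated libraries and 5.14, 5.41 and 2.92 CPM at day 2 (log2 fold change -3.88, SE 0.47, adjusted p = 3.5e-05), and Abca1, which exports cholesterol, had 9.68, 22.7 and 13.9 CPM in the untreated libraries and 56.1, 95.3 and 72.0 CPM at day 2 (log2 fold change 2.26, SE 0.32, adjusted p = 1.5e-04). The synthesis gene was low and the export gene high in every day 2 library. Of 22 NAD synthesis genes 2 were higher and 5 lower, and 0 and 5 without replicate 2. Acmsd, which diverts a tryptophan product away from NAD, had 91.3, 65.6 and 80.3 CPM in the untreated libraries and 8.32, 9.46 and 12.9 CPM at day 2 (log2 fold change -2.95, SE 0.33, adjusted p = 1.2e-05), and Sirt3, a mitochondrial NAD-dependent deacetylase, had 10.3, 9.77 and 12.97 CPM in the untreated libraries and 2.18, 2.54 and 3.04 CPM at day 2 (log2 fold change -2.09, SE 0.41, adjusted p = 0.00247).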
